A study of Homo sapiens with 4 samples.

Results

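In 775 regions of the genome of RKO cells, the BRPF3 peak mapped under mimosine was less than 0.45 times as wide as the peak mapped in asynchronous cells. These narrowed regions were chosen by peak width, as follows. Peaks of the 3 deposited BRPF3 lists that overlapped by at least 1 bp on chromosomes 1 to 22 were merged into 13623 regions, of 14039 on all chromosomes. Of these, 9798 held a peak of every list, and 8313 were under 8000 bp wide and held exactly 1 peak of each list. The narrowed regions made up 9.32% of those 8313 shared regions, and the other 7538 shared regions serve as the comparison. The mimosine and asynchronous widths set the membership, so they and the peak scores tied to them are given as a description.

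RKO is an established human colon carcinoma line, and BRPF3 was mapped by chromatin immunoprecipitation and sequencing with a rabbit antibody. One library came from cells held for 22 h in 0.5 mM mimosine. Another came from cells given the same mimosine block, released for 3 h and then kept for 1 h 30 min in 3 mM hydroxyurea (HU), referred to as HU cells, and the third from untreated asynchronous cells. All 3 lists were called against 1 IgG library from HU cells, each condition had a single library, and conditions were therefore not tested against each other. Differences below describe these libraries, and the read depth behind each list is unknown.

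BRPF3 is a scaffold subunit that holds a MYST-family acetyltransferase, mainly HBO1 (KAT7), on chromatin, where the complex acetylates histone H3. HBO1 complexes are known at the promoters of active genes and at replication origins, where acetylation accompanies origin activation. Mimosine, a plant amino acid that chelates iron, blocks the cell cycle near the entry into S phase, and HU starves replication forks of nucleotides by inhibiting ribonucleotide reductase.

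In the narrowed regions the mimosine peak was short beside the peaks of the other lists, as the rule requires for the asynchronous list. Its width had a median of 887 bp, with extremes of 162 and 3275 bp. The HU peaks there had a median of 2625 bp (598 to 7612 bp) and the asynchronous peaks one of 2494 bp (506 to 7375 bp). In the other shared regions the medians were 2089.5 bp in mimosine, 3283.5 bp in HU and 2947 bp in asynchronous cells. The HU and asynchronous peaks of narrowed regions were thus of similar width to each other, and both were somewhat narrower than elsewhere. Mimosine peaks under 1000 bp were found in 489 of the 775 regions, and 56 were under 500 bp. The mimosine peak was narrower than the asynchronous peak in 8163 of the 8313 shared regions, so narrowing as such was not particular to the members.

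In the other shared regions the mimosine to asynchronous ratio had a median of 0.715. Among the members this ratio had a median of 0.379 (interquartile range 0.320 to 0.4202). It was below 0.4 in 475 regions, below 0.3 in 165 and below 0.2 in 30. The members were thus spread over the range below the limit, with few at the lowest ratios. The member nearest the limit, chr17:7884630-7886373 (positions in hg19, counted from 1), had widths of 562 bp in mimosine, 1572 bp in HU and 1249 bp in asynchronous cells. The nearest region outside, chr20:25564429-25566701, had 891, 2273 and 1980 bp in the same order, a ratio of exactly 0.45. The next 2 on the inner side, on chromosomes 4 and 1, had ratios of 0.449952 and 0.449892, so no gap separated members from the rest.

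**Figure D1:**
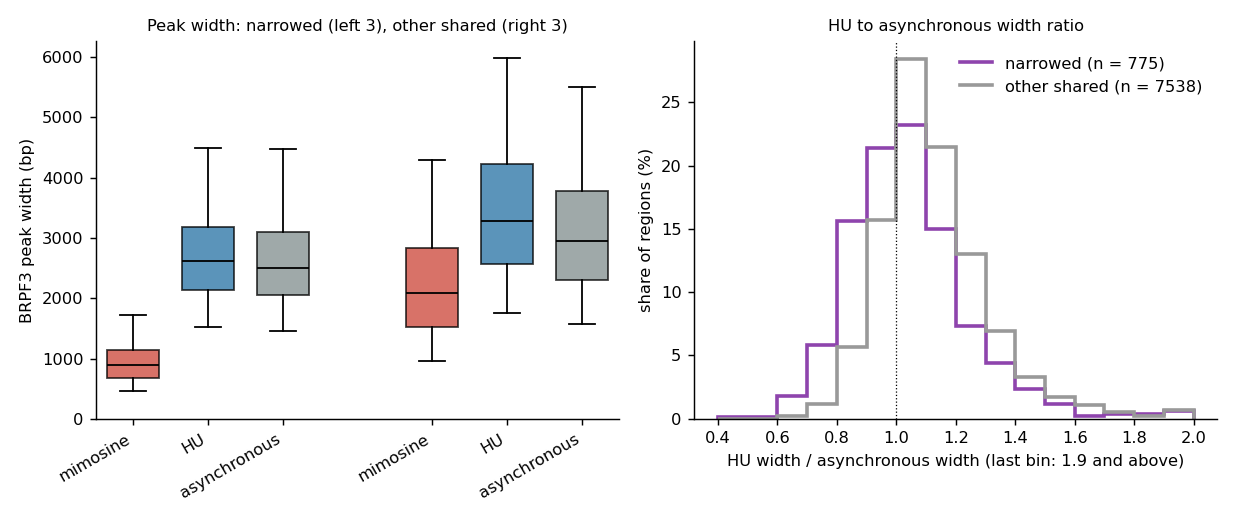
Left, BRPF3 peak width in bp by list in the 775 narrowed and the 7538 other shared regions, with boxes from the lower to the upper quartile, a line at the median and whiskers at the 5th and 95th percentiles. Right, share of regions in percent by HU to asynchronous width ratio, which centres near 1 in narrowed regions (median 1.017) and higher in the others (median 1.096).

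In HU cells these sites carried a peak about as wide as in asynchronous cells. The HU to asynchronous width ratio had a median of 1.017 in narrowed regions (order-statistic 95% interval 1.006 to 1.031, interquartile range 0.911 to 1.141) and 1.096 in the other shared regions (1.093 to 1.0997, interquartile range 1.008 to 1.214). An HU peak below 0.45 of the asynchronous width was found in 1 of 775 narrowed regions (0.129%) and 0 of 7538 others. That is 0.012% of all shared regions, so such a ratio was nearly absent from both sets. The HU library came from cells that had passed through the same mimosine block before release. With 1 library per condition, whether peaks widened again after release was not tested.

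The HU peak was the wider in 427 of 775 narrowed regions (55.1%, exact 95% interval 51.5 to 58.6%) and in 5820 of 7538 other shared regions (77.2%, 76.2 to 78.2%), against a background of 75.1% over all shared regions. A ratio below 0.9 was found in 182 narrowed regions (23.5%, 20.5 to 26.6%) and 529 others (7.02%, 6.45 to 7.62%), where the background was 8.55%. A ratio above 1.1 was found in 247 narrowed regions (31.9%, 28.6 to 35.3%) and 3682 others (48.8%, 47.7 to 49.98%), with a background of 47.3%. Ratios of 1.5 or more were held by 22 narrowed regions (2.84%, 1.79 to 4.27%), with a background of 4.1%. The HU peaks of narrowed regions were thus more often narrower than their asynchronous partners than those of other regions. The asynchronous width is the denominator of both ratios. A choice of regions with an asynchronous peak wide relative to the mimosine peak therefore partly fixes a low HU ratio. How far it did was not tested.

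The HU width did not enter the ratio used to choose the regions, so HU values at a given asynchronous score are less tied to the choice. Among the 4 quartiles of the asynchronous score, the lowest held 445 narrowed regions with a median HU width of 2401 bp, against 2298 bp in 1634 other regions. In the second quartile the HU medians were 2756 bp in 225 narrowed and 2866.5 bp in 1854 other regions. In the third they were 3524.5 bp in 84 narrowed and 3451 bp in 1993 other regions. In the highest they were 4103 bp in 21 narrowed and 4567 bp in 2057 other regions. At like asynchronous scores, then, the HU widths of narrowed and other regions lay close together in the lower 3 quartiles. The asynchronous widths, which the rule used, were not alike within these quartiles. The HU scores, also the authors' value per peak, had lower medians in narrowed regions, at 264, 408, 740 and 1268 from the lowest to the highest quartile, against 285, 571, 998.5 and 2188 in other regions. The asynchronous scores themselves had medians of 254, 511, 963 and 1671 in narrowed and 263, 568, 1004 and 2194 in other regions of the same quartiles. The asynchronous median widths were 2242, 2745, 3646.5 and 4452 bp in narrowed and 2000.5, 2578, 3129 and 4191 bp in other regions. In the third quartile the mimosine medians were 1291.5 bp and 2248 bp. By quartile of the asynchronous width instead, the HU median widths were lower in narrowed regions throughout. From the narrowest to the widest they were 1980, 2608.5, 3154.5 and 4137.5 bp, against 2153, 2879.5, 3572 and 4883 bp in other regions. The closeness of the HU widths thus held by score and not by width.

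Relative to HU cells the mimosine peak was also short in most of these regions. The mimosine to HU width ratio had a median of 0.356 in narrowed and 0.648 in other shared regions. It was below 0.45 in 651 narrowed regions (84.0%), where 13.6% of all shared regions met that limit. The mimosine width is part of the rule, so nothing is read from this count. In the other 124 the HU peak was, as the arithmetic requires, shorter than the asynchronous peak.

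The lost width was divided between both ends of the peak with no preferred side. Narrowed regions had lost a median of 749 bp at the low-coordinate end and 753 bp at the high-coordinate end, against 362 and 359.5 bp in other shared regions. The larger loss was at the low-coordinate end in 378 of 775 (48.8%, 45.2 to 52.4%), beside 49.4% of all shared regions with a narrower mimosine peak. Coordinates carry no strand, so the direction of any gene at these sites was not used.

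Loss confined mainly to a single end was a minority pattern. Over 80% of the loss lay at 1 end in 181 narrowed regions (23.4%, 20.4 to 26.5%) and in 2144 of 7388 other regions with a narrower mimosine peak (29.0%, 27.99 to 30.1%), with a background of 28.5%. Over 90% lay at 1 end in 53 narrowed regions (6.84%, 5.16 to 8.85%) and in 1165 other regions (15.8%, 14.9 to 16.6%). Lopsided loss was therefore no more common than elsewhere in these lists. Both limits also count regions where the mimosine peak ran past the asynchronous edge at the other end. The mimosine peak lay wholly within the asynchronous peak in 761 of 775 narrowed and 6708 of 7538 other regions. A loss of a few bp also divides unevenly more easily than a large one. The shares of the 2 sets are therefore not on an equal footing.

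The outer edges of the HU and asynchronous peaks lay close together at narrowed regions. The HU peak reached a median of 36 bp past the asynchronous edge at the low end (interquartile range -113.5 to 172.5 bp) and 20 bp at the high end (-133 to 189 bp). In other shared regions it reached 113 and 116 bp past. At its 2 ends the HU peak thus extended less far at narrowed sites, and these offsets share the asynchronous edges, which the rule used. Measured from the HU edges instead, the mimosine peak began a median of 797 bp inside and ended 766 bp inside, against 510 and 513 bp in other shared regions.

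The mimosine peak mostly lay inside the larger peaks. The mimosine peak lay wholly within the HU peak in 772 of 775 narrowed regions, with a background of 98.3%, and wholly within the asynchronous peak in 761, with a background of 89.8%. A shorter peak is contained more easily, so these counts partly follow from the choice. Its centre was a median of 279 bp from the asynchronous centre, against 148.5 bp in other shared regions, while the HU centre was 118.5 bp away in narrowed and 138.5 bp in other regions. The mimosine and HU centres lay on the same side of the asynchronous centre in 452 narrowed regions (58.3%, 54.8 to 61.8%), with a background of 63.2%, and both offsets share the asynchronous edges.

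**Figure D2:**
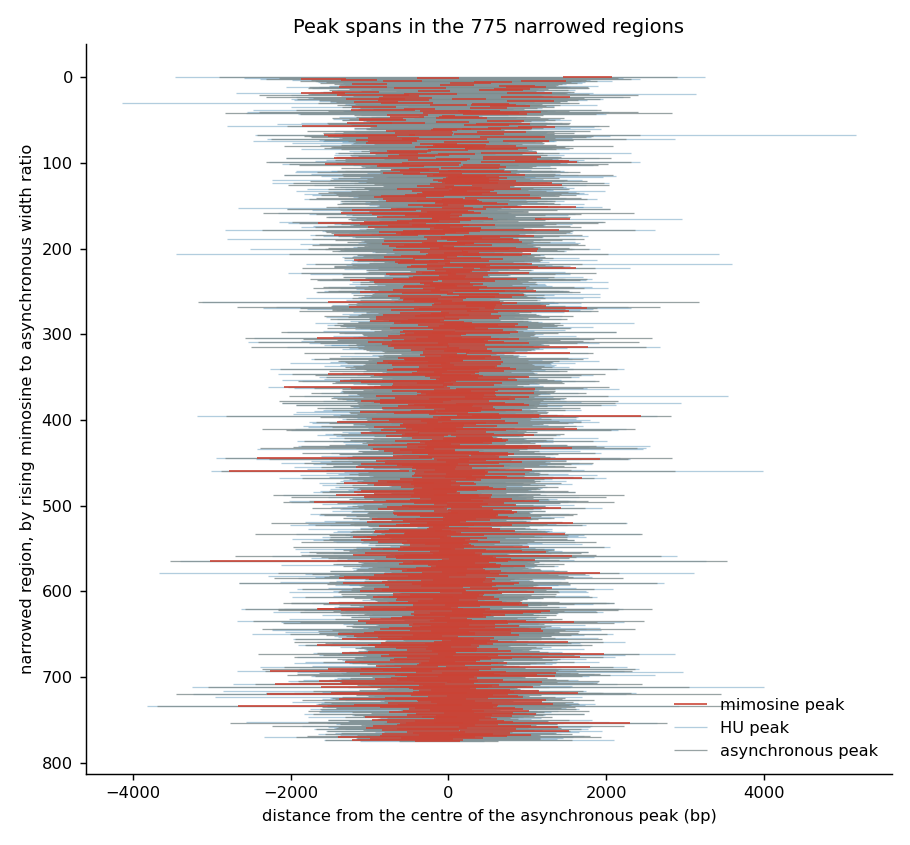
Spans of the mimosine, HU and asynchronous peaks in each of the 775 narrowed regions, as distance in bp from the centre of the asynchronous peak, with regions ordered down the page by rising mimosine to asynchronous width ratio. The mimosine spans (median 887 bp) mostly sit within the HU (2625 bp) and asynchronous (2494 bp) spans. The mimosine spans lie on both sides of the centre and away from it most visibly at the lowest ratios.

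The 5 regions of lowest ratio had wide HU and asynchronous peaks over a mimosine peak near the lowest score of its list. The score is the authors' own value per peak, the peak caller's p-value as 10 times its negative base-10 logarithm, which depends on the depth of each library, so that a score is read against other regions of its own list. At chr4:175201569-175208284 the widths were 631 bp in mimosine, 6716 bp in HU and 5801 bp in asynchronous cells, a mimosine to asynchronous ratio of 0.109. There the mimosine peak began 4347 bp inside the low-coordinate edge of the asynchronous peak and ended 823 bp inside the other edge.

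At chr7:14027059-14031859 the widths were 524 bp in mimosine, 4801 bp in HU and 4301 bp in asynchronous cells, a ratio of 0.122, and the mimosine peak sat near the middle with losses of 1758 and 2019 bp. At chr10:10832342-10837161 they were 577, 4820 and 4619 bp in the same order, a ratio of 0.125, with 438 bp lost at the low end and 3604 bp at the high end. The region on chromosome 7 lay 1299027 bp from the nearest other merged region, and that on chromosome 10 lay 813960 bp from its nearest. These 2 sites were thus isolated, but the chromosome 4 region of lowest ratio lay only 234 bp from another merged region. The 2 low-ratio regions on chromosome 11 lay 16643 and 15375 bp from theirs. The median gap to the nearest merged region was 31.1 kb for all narrowed and 29.7 kb for other shared regions.

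The last of these 5 were both on chromosome 11. At chr11:85337755-85341528 the widths were 453 bp in mimosine, 3774 bp in HU and 3479 bp in asynchronous cells, and at chr11:66443322-66446690 they were 491, 3363 and 3347 bp. Across the 5 regions the mimosine scores were 53.1 to 64.1, at rank percentiles of 2.12 to 8.33 in the mimosine list. Their HU scores were 214 to 650 and their asynchronous scores 302 to 961, at rank percentiles of 27.6 to 55.6 and 33.3 to 67.4. The mimosine peaks were thus among the lowest ranked of their list at sites of middle rank in the others.

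Low scores were general among narrowed regions. The mimosine score had a median of 87.8 in narrowed and 361 in other shared regions, and was below 100 in 447 narrowed regions (57.7%), where the background was 15.8%. The HU score had a median of 334 in narrowed and 830 in other regions, and the asynchronous score 367 and 814. In rank within each whole list, narrowed regions stood at a median percentile of 17.8 in mimosine, 37.3 in HU and 38.0 in asynchronous cells, and the other shared regions at 57.3, 63.1 and 62.1. Within each list the narrowed sites therefore ranked below the other shared sites. At the same limit, which is not equivalent between lists, 17 narrowed regions fell below 100 in HU (2.19%, 1.28 to 3.49%, background 1.11%) and 20 in asynchronous cells (2.58%, 1.58 to 3.96%, background 1.32%).

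The share of shared regions that were narrowed declined with the HU score, a value from a library outside the width ratio. In the lowest quartile of the HU score, 493 of 2079 regions were narrowed (23.7%, 21.9 to 25.6%), and in the second 211 of 2078 (10.2%, 8.89 to 11.5%). In the third it was 62 of 2078 (2.98%, 2.30 to 3.81%), and in the highest 9 of 2078 (0.433%, 0.198 to 0.821%). The lower 2 quartiles thus held 704 of the 775 narrowed regions (90.8%, 88.6 to 92.8%). The part of the score, and of the depth of the mimosine library, in the width of its peaks was not tested.

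The share also declined with width, but not once the score was held alike. By asynchronous width, which was part of the rule, 13.4, 11.5, 7.71 and 4.72% of shared regions were narrowed from the narrowest to the widest quartile. By HU width alone, 16.7% of the narrowest quartile and 2.89% of the widest quartile were narrowed. Within the lowest quartile of the HU score, however, 302 of 1375 regions of the narrowest width quartile were narrowed (22.0%, 19.8 to 24.2%), 133 of 501 in the second (26.5%, 22.7 to 30.6%), 43 of 165 in the third (26.1%, 19.5 to 33.5%) and 15 of 38 in the widest (39.5%, 24.04 to 56.6%). The intervals of all 4 overlapped, and an order by HU width was not tested. In the second quartile of the HU score the shares were 7.84, 10.7, 11.5 and 11.1%, and in the third 1.41, 2.11, 3.10 and 4.36%, from the narrowest to the widest peaks. The asynchronous width entered the rule. In the lowest quartile of the asynchronous score, the shares by asynchronous width were 17.1% (15.1 to 19.3%), 26.6% (22.8 to 30.5%), 34.5% (27.5 to 42.0%) and 34.8% (21.4 to 50.2%). There the interval of the narrowest peaks lay below the rest. The asynchronous width is the denominator of the rule, so nothing is read from this rise.

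**Figure D3:**
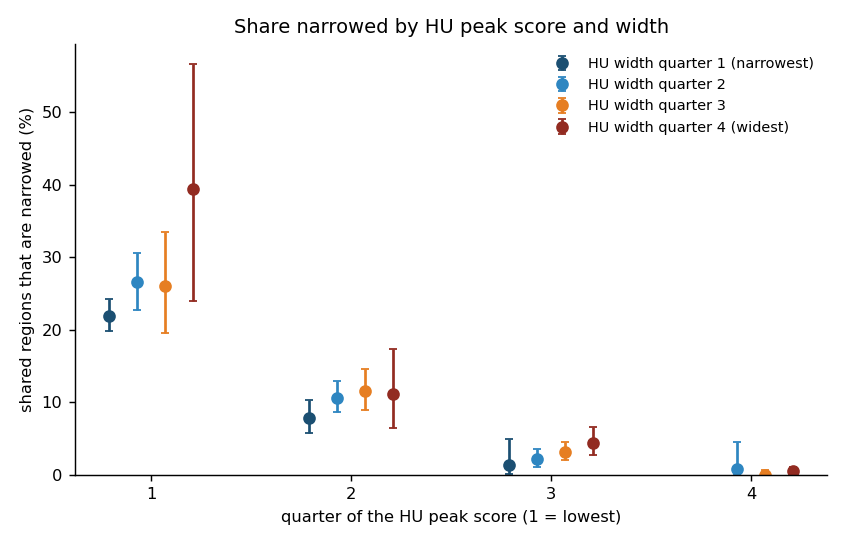
Share of shared regions that were narrowed, in percent with exact 95% intervals, by quartile of the HU peak score (horizontal axis, 1 lowest) and quartile of the HU peak width (colour), for combinations of 20 or more regions. The share is between 22.0 and 39.5% at the lowest scores and below 1% at the highest.

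A few narrowed regions had strong peaks. The highest quartile of the asynchronous score held 21 of the 775, and those 21 had median widths of 1792 bp in mimosine, 4103 bp in HU and 4452 bp in asynchronous cells. Their HU peak was the wider in 7 of 21. At chr17:16341016-16347916 the widths were 3053 bp in mimosine, 5479 bp in HU and 6901 bp in asynchronous cells, with scores of 1764, 3100 and 3100. At this site, HU as well as mimosine cells had a shorter peak than asynchronous cells.

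At chr5:72920794-72925971 the widths were 2164 bp in mimosine, 4857 bp in HU and 4909 bp in asynchronous cells, with 2492 bp of the loss at the high end and 253 bp at the low end. At chr12:27483851-27489234 they were 2231, 5384 and 5296 bp in the same order, with rank percentiles of 87.7, 89.3 and 89.9 within the 3 lists. At chr14:59948004-59953595 they were 2254, 5127 and 5397 bp, and at chr2:86946031-86951089 they were 1587, 5059 and 4214 bp. Scores of exactly 3100 were shared by 903 asynchronous peaks, so order at that value is not resolved.

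Narrowed regions also differed among themselves in HU cells. The 5 regions of highest HU ratio had small asynchronous peaks of 1255 to 1986 bp beside HU peaks of 2517 to 4894 bp. At chr19:18496528-18499973 the widths were 392 bp in mimosine, 3446 bp in HU and 1332 bp in asynchronous cells, and the scores 68.0, 874 and 145. The rank percentile within its own list was 10.1 for the mimosine peak, 64.7 for the HU peak and 18.8 for the asynchronous peak. The HU peak extended 2006 bp past the low-coordinate edge of the asynchronous peak and 108 bp past the other.

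At chr4:185609161-185612985 the widths were 446 bp in mimosine, 3825 bp in HU and 1485 bp in asynchronous cells. Here the mimosine and asynchronous peaks shared no base and were joined through the HU peak, which occurred at 1 narrowed region and 0.012% of all shared regions. At chr5:97643273-97648166 the widths were 774, 4894 and 1986 bp in the same order, at chr3:149292104-149295162 they were 646, 3059 and 1439 bp, and at chr12:127254716-127257232 they were 497, 2517 and 1255 bp. Of these, the regions on chromosomes 3 and 5 lay within 1 kb of another merged region, at 621 and 141 bp, and the one on chromosome 12 lay 1583008 bp from any other.

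At the other extreme the HU peak was short as well. At chr8:144535231-144538169 the widths were 645 bp in mimosine, 1284 bp in HU and 2939 bp in asynchronous cells, where the asynchronous score was 56.7 and the HU score 172. At chr1:11332830-11336752 they were 1151, 2039 and 3778 bp in the same order, and the HU peak ended 1884 bp inside the high-coordinate edge of the asynchronous peak. At chr2:196520836-196525545 they were 1394, 2953 and 4710 bp, with scores of 513, 1065 and 1728. The other 2 were chr6:8100284-8103328, with 1024, 1898 and 3045 bp, and chr6:74405174-74406943, with 790, 1111 and 1770 bp. In all 5 the asynchronous peak was the widest of the 3, and the HU ratio was 0.437 to 0.628.

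**Figure D4:**
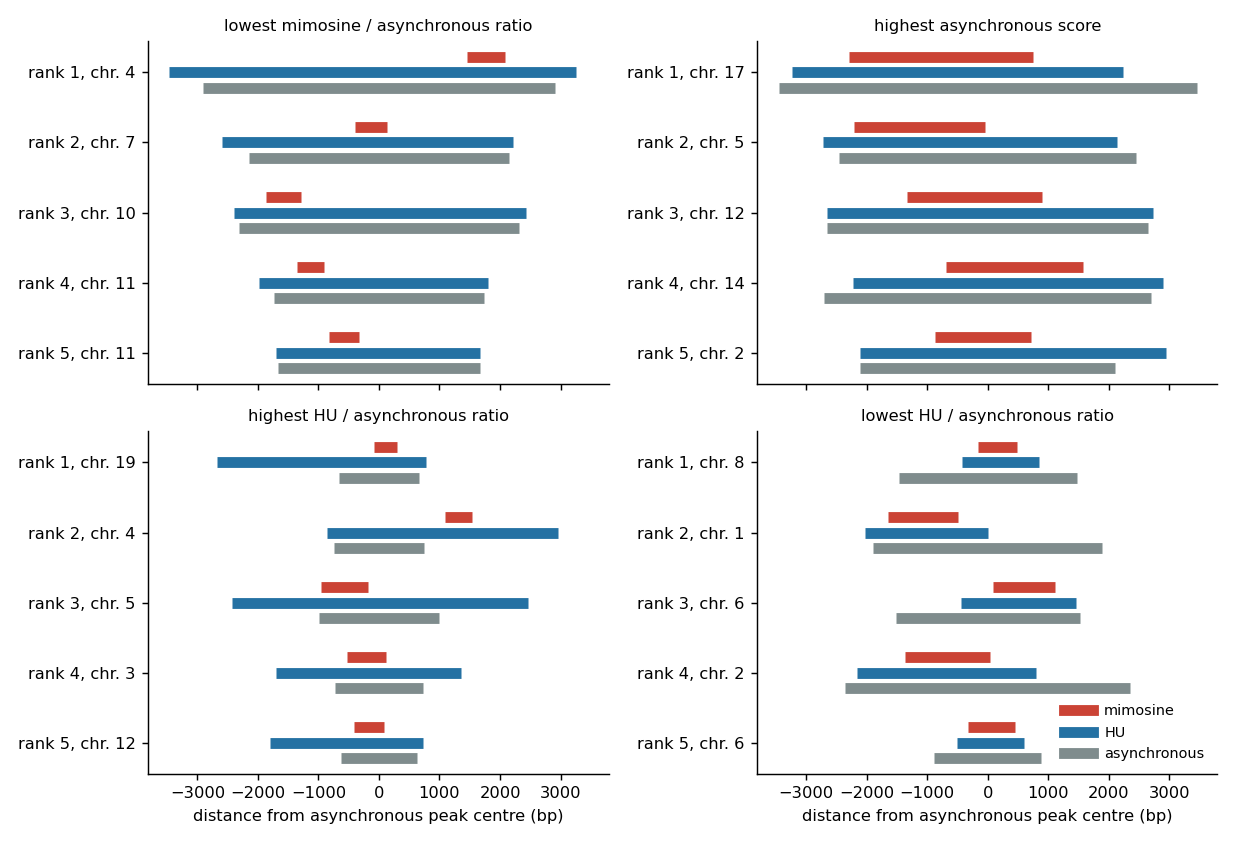
Spans of the mimosine (upper bar), HU (middle bar) and asynchronous (lower bar) peaks as distance in bp from the asynchronous centre, for the 5 narrowed regions of lowest mimosine to asynchronous ratio, highest asynchronous score, highest HU to asynchronous ratio and lowest HU to asynchronous ratio. The mimosine bar is the shortest in all 20 regions, and the HU bar ranges from 2.59 to 0.437 times the asynchronous bar.

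Loss at mainly 1 end was large at several sites. After the chromosome 4 region of lowest ratio, the largest low-end loss was at chr10:101764621-101770630, where the mimosine peak of 2142 bp began 3116 bp inside the asynchronous peak of 5641 bp and ended 383 bp inside it, while the HU peak spanned 5836 bp. At chr19:18527382-18532122 the mimosine peak of 1782 bp had lost 2406 bp at the low end and 352 bp at the high end, beside an HU peak of 4741 bp and an asynchronous peak of 4540 bp. These 2 sites had HU edges within 369 bp of the asynchronous edges. The others were chr3:157248124-157252069, with a low-end loss of 2796 bp, and chr6:114175719-114181259, with 2588 bp, and at the last the HU peak also began 1226 bp inside the asynchronous edge.

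High-end losses reached similar sizes. After the chromosome 10 region of low ratio, chr7:98922093-98929146 had lost 3595 bp at the high end and 506 bp at the low end, with widths of 2953 bp in mimosine, 6671 bp in HU and 7054 bp in asynchronous cells. At chr4:81224552-81231540 the losses were 3371 and 100 bp, and the HU peak reached 1107 bp past the asynchronous high end. The other 2, chr10:16478264-16484037 and chr3:16304460-16309310, had lost 3038 and 2949 bp at the high end. At that chromosome 3 site the widths were 940 bp in mimosine, 4721 bp in HU and 4079 bp in asynchronous cells.

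Narrowed regions occurred on all 22 autosomes, at shares of 4.42 to 13.5%. The share of shared regions was highest on chromosome 14, at 37 of 275 (13.5%, 9.65 to 18.1%), and chromosome 6, at 55 of 429 (12.8%, 9.81 to 16.4%). It was lowest on chromosome 20, at 11 of 249 (4.42%, 2.23 to 7.77%), and chromosome 9, at 20 of 372 (5.38%, 3.31 to 8.18%). The upper interval ends of chromosomes 9 and 20 lay below the overall 9.32%, and the lower ends of chromosomes 6 and 14 above it. Among regions of the lower 2 quartiles of the asynchronous score alone, the shares were 18.9% (12.8 to 26.3%) on chromosome 14 and 21.7% (16.5 to 27.7%) on chromosome 6. They were 9.40% (4.79 to 16.2%) on chromosome 20 and 11.4% (7.03 to 17.3%) on chromosome 9. Over chromosomes 1 to 22 the shares were 21.4% in the lowest and 10.8% in the second of these quartiles. The named chromosomes were picked as the extremes of 22, so no difference between chromosomes is read from these values.

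The rule kept every mimosine to asynchronous ratio below 0.45 but set no such limit on the HU ratio. Their spreads between chromosomes are therefore not compared. The median mimosine to asynchronous ratio of the narrowed regions was between 0.342 on chromosome 21 and 0.401 on chromosome 13. The median HU to asynchronous ratio was between 0.962 on chromosome 8 and 1.315 on chromosome 21, where it rests on 9 regions. Among chromosomes with 20 or more narrowed regions, chromosome 4 had the highest HU ratio, at 1.175 over 34 regions.

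**Figure D5:**
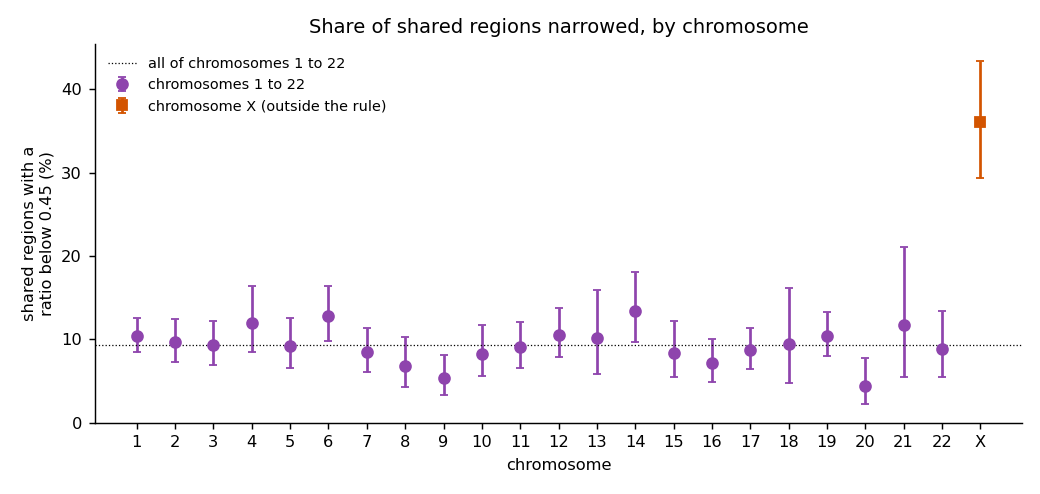
Share of shared regions with a mimosine to asynchronous width ratio below 0.45, in percent with exact 95% intervals, by chromosome, with a dotted line at the 9.32% of chromosomes 1 to 22. Autosomes range from 4.42 to 13.5%, and chromosome X, which the choice of members left out, stands at 36.1%.

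Along the chromosomes narrowed regions were scattered, with some close neighbours. Neighbouring narrowed regions lay a median of 1589 kb apart (interquartile range 427 to 4447 kb). The next shared region along the chromosome was also narrowed for 92 of 773 narrowed regions (11.9%, 9.70 to 14.4%) and for 683 of 7518 others (9.08%, 8.44 to 9.76%). By gap to the next region, the shares were 9 of 73 (12.3%, 5.80 to 22.1%) and 60 of 634 (9.46%, 7.30 to 12.01%) under 10 kb. From 10 to 50 kb they were 25 of 168 (14.9%, 9.87 to 21.2%) and 158 of 1925 (8.21%, 7.02 to 9.52%). From 50 to 200 kb they were 21 of 251 (8.37%, 5.25 to 12.5%) and 205 of 2673 (7.67%, 6.69 to 8.74%), and beyond that 37 of 281 (13.2%, 9.44 to 17.7%) and 260 of 2286 (11.4%, 10.1 to 12.7%). The intervals of narrowed and other regions were thus apart in 1 of the 4 ranges. A narrowed region was thus most often followed by a region that was not.

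The closest pair was chr3:47016462-47019712 and chr3:47020060-47022451, 347 bp apart, with mimosine widths of 1166 and 586 bp and asynchronous widths of 2701 and 2095 bp. The next pairs were chr12:109529142-109531847 with chr12:109535057-109537985, 3209 bp apart, and chr2:176993810-176996710 with chr2:177000395-177002610, 3684 bp apart. In the pair on chromosome 2, the widths were 593 bp in mimosine, 2899 bp in HU and 2689 bp in asynchronous cells at the first region and 738, 2216 and 1835 bp at the second. Both had HU peaks wider than the asynchronous ones, as did both regions of the chromosome 3 pair, while both of the chromosome 12 pair had shorter ones.

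Counted in windows of 1 Mb, chosen after their values were seen, 431 windows held 1 narrowed region, 114 held 2, 23 held 3, 3 held 4 and 7 held 5. Adjacent windows at 26 to 27 Mb and 27 to 28 Mb of chromosome 6 held 5 of 20 and 5 of 12 shared regions. The 10 regions had mimosine widths of 485 to 1218 bp, HU widths of 1957 to 4700 bp and asynchronous widths of 1563 to 4623 bp. Among them was chr6:27635496-27639314, with widths of 612 bp in mimosine, 3214 bp in HU and 3527 bp in asynchronous cells, and chr6:27437660-27442393, with 1218, 4700 and 4623 bp. Windows on chromosome 19 at 53 to 54 Mb and 58 to 59 Mb held 5 of 17 and 5 of 18, and that at 54 to 55 Mb of chromosome 12 held 5 of 11. The other 2 windows with 5 were at 23 to 24 Mb of chromosome 14, with 5 of 19, and at 12 to 13 Mb of chromosome 19, with 5 of 24, beside 9.32% over all shared regions. With 5 or fewer counts per window, chosen for being high, nothing is read from these shares. The mimosine to asynchronous ratios were 0.415 to 0.434 at 53 to 54 Mb and 0.254 to 0.432 at 58 to 59 Mb of chromosome 19, and 0.226 to 0.447 in the window of chromosome 12. As background, the main cluster of replication-dependent histone genes lies on the short arm of chromosome 6, and clusters of zinc-finger genes lie on chromosome 19, but the genes of these windows were not looked up, since no annotation of hg19 was used.

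The surroundings of narrowed regions resembled those of other shared regions. Another merged region lay within 5 kb of 144 narrowed regions (18.6%, 15.9 to 21.5%) and 1165 others (15.5%, 14.6 to 16.3%), with a background of 15.7%. The nearest merged region was held by the HU and asynchronous lists but missing from the mimosine list for 111 narrowed regions (14.3%, 11.9 to 17.0%) and 1022 others (13.6%, 12.8 to 14.4%), with a background of 13.6%. Sites that were short in mimosine cells were thus found beside sites without a mimosine peak about as often as other sites were.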

How the data were processed

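Per the labels, 3 BRPF3 libraries and 1 IgG library from RKO cells were made by ChIP-seq. Per the submitters' processing notes, the tools were Bowtie 0.12.8, SAMtools, MACS 1.4.0 and bedtools and the builds hg18 and hg19, with no order or settings stated. The deposited lists give a position and a score per peak, and the score, which the authors deposited as the peak caller's value, depends on each library's depth (lowest value 50). Scores of the 3 lists are printed side by side but not compared, and a limit of 100 was applied to each list alike though it is not equivalent between them. Positions are given as hg19, because peaks run past the chromosome ends of hg18. One description label names other BRPF proteins, while the titles and the antibody label name BRPF3 and were followed. No hg19 genome or annotation was used, so genes, promoters and sequences were not analysed here and the planned promoter share was not run.

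Overlapping peaks were merged, and widths and edges compared within regions holding 1 peak per list, with exact Clopper-Pearson or order-statistic 95% intervals that cover counting error only, since regions of 1 genome are not replicates. Quartiles were cut over the 8313 shared regions, and under other settings over the shared regions of each setting. Named regions were the 5 of lowest mimosine ratio, of highest asynchronous score (values above 3100 set to 3100), of highest and lowest HU ratio, and of largest loss mainly at either end, the 3 closest pairs, and those next to the limit. Members, lists and this rule were chosen with earlier results of these data known. The code was checked on simulated peak lists. Calculations used SciPy 1.17.1, NumPy 2.4.6 and pandas 2.3.3 under Python 3.11.15, and figures matplotlib 3.10.9.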

Additional observations from a re-analysis of the deposited data

Results flagged for a closer look

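Chromosome X, which the choice of regions left out, held a signal of the same kind. There, 69 of 191 shared regions under 8000 bp (36.1%, exact 95% interval 29.3 to 43.4%) had a mimosine peak below 0.45 of the asynchronous width, against 9.32% on chromosomes 1 to 22. In these 69 regions the widths had medians of 686 bp in mimosine, 2429 bp in HU and 2239 bp in asynchronous cells, the median HU to asynchronous ratio was 1.03, and the HU peak was the wider in 41. Over all shared regions of chromosome X the median mimosine ratio was 0.572, against 0.694 on the autosomes, while the HU ratio was 1.096 on X and 1.091 on the autosomes. Asynchronous scores were lower on X, with a median of 440 against 749. Within quartiles of the autosomal asynchronous score, from lowest to highest, narrowed regions made up 52.3% (46 of 88), 34.0% (17 of 50), 17.9% (5 of 28) and 4% (1 of 25) on X, against 21.4, 10.8, 4.04 and 1.01% on the autosomes. The intervals of the 2 chromosome classes did not overlap in the lower 3 quartiles and did in the highest. This difference was seen in 1 library per condition and its cause was not tested.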

How the results depend on the processing

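The number of narrowed regions was 475 with a ratio below 0.4, 1201 below 0.5 and 472 with peaks of score 100 or more, of which 326 were among the original 775, and stayed within 1.5 times with the other settings (725 to 844). The share in the lowest quartile of asynchronous score became 63.4% below 0.4 and 46.0% at a score of 100 or more, and that in the highest quartile 1.05% below 0.4 and 4.33% below 0.5. Quartiles were cut anew over the shared regions of each setting, 7631 at a score of 100 or more. At that setting, 22.9% lay in the lowest and 24.8% in the highest quartile of asynchronous width, against 36.0% and 12.6% in the main set. The cause of these shifts was not tested. The median distance between neighbours was 2713 kb below 0.4, 1007 kb below 0.5 and 3228 kb at a score of 100 or more, which follows from the number of regions. Loss mainly at 1 end was 45.8% with a limit of 70% and 6.84% with 90%, by construction. The median HU ratio (1.017 to 1.023) and the share with a wider HU peak (54.9 to 55.7%) moved within their intervals under all 7 alternatives. Each of the 37 named members kept its ratio wherever it still formed a region with 1 peak per list, by construction, since no setting changes the width of a peak. Of these 37, 16 were still narrowed regions at a score of 100 or more and 23 below 0.4. With peaks within 1 kb merged 32 were, and under the other settings all 37. A score of 100 or more removed every named region of lowest mimosine ratio, where the mimosine scores were 53.1 to 64.1. It also removed those of highest HU ratio (58.9 to 89.8), and those of lowest HU ratio except chr2:196520836-196525545. The named regions of highest asynchronous score were kept. The region of lowest mimosine ratio, chr4:175201569-175208284, was also lost with peaks within 1 kb merged. No paired analysis was possible because each condition had 1 library. The promoter windows of 500 bp and 2 kb were not run. The depth behind each list is unknown, which limits the precision of every width.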

Other observations

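Regions outside the choice on chromosomes 1 to 22 gave further values. Of the 143 regions with 1 peak per list that were 8000 bp or wider, 2 (1.399%, exact 95% interval 0.170 to 4.96%) had a mimosine peak below 0.45 of the asynchronous width. Of the 1342 regions of all 3 lists that held several peaks of a list, 93 (6.93%, 5.63 to 8.42%) had summed mimosine widths below 0.45 of the summed asynchronous widths. In these 93 the median summed HU to asynchronous ratio was 1.04, and the HU sum was the larger in 59.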
